A study of Mus musculus with 4 samples.

Results

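Trp53, which encodes the transcription factor p53, and 29 of its established target genes were followed through 4 RNA-seq libraries of mouse embryonic stem cells. Members were the rows of the count table whose Entrez number matched these 30 symbols in the RefSeq annotation of GRCm38.p6. All 30 of 30 symbols were found among the 24116 genes of the table. All 30 also passed the filter on low counts, which kept 14194 genes.

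In unstressed cells p53 protein is kept scarce by MDM2, a ubiquitin ligase that marks it for destruction and is itself a p53 target. Stress signals such as DNA breaks loosen this hold, and p53 then binds paired half-sites in DNA and raises genes for cell cycle arrest, cell death, repair and metabolism. Embryonic stem cells carry abundant Trp53 RNA and protein, and the RNA of p53 itself says little about its activity, which is set mainly on the protein.

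Of these libraries, 2 came from wild-type cells (wild type 1 and wild type 2) and 2 from cells whose titles call Kdm2a, a histone H3 lysine 36 demethylase, knocked out (called knockout 1 and knockout 2 after their labels). The strain is given as 12910la, and cells grew in serum medium with LIF on gelatin. For the knockout line a guide RNA was transfected, GFP-positive cells were sorted and a single clone was grown up, so a property of that clone cannot be told apart from the genotype. The genotype label of the same samples says knocked down rather than knocked out. The comparison asks how gene expression differs when Kdm2a is disrupted. Whether the libraries of a label are separate cultures is not stated, and the p-values here therefore reflect only the spread of these 4 libraries, possibly a technical one. The labels also do not say what the numbers 1 and 2 stand for. Paired values are given below for number 1 and then number 2 of each label.

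Library totals lay between 18844246 and 19056529 counts. Kdm2a itself gave 2899 and 3554 reads in wild type, against 3710 and 4753 in those labelled knockout, so its RNA was not lower there and every direction rests on the labels. The 10 stem cell markers, among them Pou5f1, Nanog and Esrrb, were all expressed and summed to between 5626 and 6532 CPM (counts scaled to the library total after TMM adjustment). Markers of other cell types were far lower in sum. Mesoderm markers summed to 13.5 and 8.08 CPM in wild type, against 12.4 and 9.07 CPM in those labelled knockout, with 5 of 10 tested. Trophoblast markers summed to between 68.8 and 128 CPM. Primitive endoderm markers summed to 178 and 124 CPM in wild type, against 138.5 and 199 CPM in those labelled knockout. Not every marker followed this sum, as Gata4 and Col4a1 were highest in wild type 1. For neural markers the sums were 98.0 and 127 CPM in wild type, against 126 and 170 CPM in those labelled knockout, with Neurog2 at 0 throughout. Fibroblast markers summed to 302 and 312 CPM in wild type, against 304 and 628 CPM in those labelled knockout, with Lum at 0 in all 4 libraries. Most of this sum was Vim, at 252 and 288 CPM in wild type, against 263 and 602 CPM in those labelled knockout. Of the other fibroblast markers tested, Twist1 was also highest in knockout 2. Col1a1 and Pdgfra were lowest there, and Thy1 was highest in wild type 1. For 2-cell-like markers the sums were 12.7 and 21.4 CPM in wild type, against 23.5 and 4.89 CPM in those labelled knockout. Knockout 2 thus had the highest fibroblast, neural and primitive endoderm sums and the lowest 2-cell-like sum. The part of these cell types in the results below was not tested, and in bulk samples fewer cells of a type and less RNA per cell cannot be told apart.

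Stretches that resemble the DNA motif bound by p53 are shown first, for some of the members in which one lies just before a start site. The 250 bases before each RefSeq start site were searched for the p53 half-site, a motif of 10 bases that reads the same on both strands (purines, then C, an A or T pair, G, then pyrimidines). Start sites were listed for 24 of the 30 members, and 11 of these 24 held an exact half-site, against 8.2% of the 27025 genes in the RefSeq table. In the sequences below, printed 5′ to 3′ on the strand of the gene and ending before the annotated gene, capitals mark half-sites. Where a promoter holds more than 1 pair, only 1 pair with the fewest mismatches is in capitals.
Cdkn1a, chr17:29090729-29090978 (GRCm38.p6, plus strand): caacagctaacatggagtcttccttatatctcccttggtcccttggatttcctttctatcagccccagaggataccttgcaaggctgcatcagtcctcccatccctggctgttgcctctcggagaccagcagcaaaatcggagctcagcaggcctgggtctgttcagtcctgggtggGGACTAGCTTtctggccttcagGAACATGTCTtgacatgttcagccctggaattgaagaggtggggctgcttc
Ccng1, chr11:40755310-40755536 (GRCm38.p6, minus strand): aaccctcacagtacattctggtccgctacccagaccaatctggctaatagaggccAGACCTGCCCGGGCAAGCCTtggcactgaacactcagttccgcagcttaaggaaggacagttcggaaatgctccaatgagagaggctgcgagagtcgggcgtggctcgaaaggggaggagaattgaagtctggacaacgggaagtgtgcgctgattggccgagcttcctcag
Bax, chr7:45466904-45467148 (GRCm38.p6, minus strand): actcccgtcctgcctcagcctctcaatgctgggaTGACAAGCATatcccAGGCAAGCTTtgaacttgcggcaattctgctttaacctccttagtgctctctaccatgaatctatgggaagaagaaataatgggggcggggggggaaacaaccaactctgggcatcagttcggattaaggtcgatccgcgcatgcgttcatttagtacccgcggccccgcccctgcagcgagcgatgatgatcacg

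These 3 promoters hold paired half-sites. Cdkn1a has an exact pair with a spacer of 12 bases, 73 to 42 bases before its outermost annotated start site. The 10 bases directly after the second half-site of Cdkn1a, in lower case above, also match the motif with 1 mismatch. They form a further pair with it, without a spacer. An exact pair, with a spacer of 0 to 13 bases, stood before 0.0666% of all genes. In Ccng1 the pair has 1 mismatch and no spacer, and in Bax it has 2 mismatches and a spacer of 5 bases. Pairs with at most 2 mismatches, the inner C and G of each half-site kept, stood before 4 of the 24 members and 3.87% of all genes. The fourth was Sesn1, at an inner start site. A match is a description of letters and not evidence of binding.

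Single exact half-sites are shown for the ubiquitin ligase gene Mdm2, for Trp53 itself, for the phosphatase gene Ppm1d and for Ddit4l, which represent the range of behaviours described next.
Mdm2, chr10:117710925-117710954 (minus strand): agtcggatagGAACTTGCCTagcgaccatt
Trp53, chr11:69580274-69580303 (plus strand): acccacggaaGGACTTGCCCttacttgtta
Ppm1d, chr11:85311112-85311141 (plus strand): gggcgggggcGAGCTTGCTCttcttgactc
Ddit4l, chr3:137623572-137623601 (plus strand): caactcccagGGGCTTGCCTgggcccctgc

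Most p53 targets overlapped between the genotype labels, and most of them stood higher in the libraries numbered 1 than in those numbered 2. No member passed the edgeR quasi-likelihood test of knockout against wild type at an adjusted p under 0.05 (0 of 30, against 0.0% of all genes tested). At an unadjusted p under 0.05 the count was also 0 of 30, where 1.7% of all genes lay under it, and DESeq2, limma-voom and the edgeR likelihood ratio test each called 0 members too. This count depended on the fit, since 2 members lay under an unadjusted p of 0.05 with the replicate number as a block (735 of 14194 genes) and 8 without knockout 1 (1843 of 14714 genes), none of them past the adjusted threshold. The member with the lowest p was Pltp (log2 fold change 0.90, unadjusted p = 0.106 by the edgeR model over all genes, not by an exact test). Only 2 of 30 members had libraries that did not overlap between the labels, Bax on the higher and Rrm2b on the lower side, while 24.4% of all genes did so.

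Fitted log2 fold changes, knockout minus wild type, were negative for 26 of 30 members, against 49.5% of all genes. Their median was -0.20, against 0.003 over all genes. Compared within each number, the median difference between labels was -0.271 for number 1 and -0.115 for number 2, against -0.011 and 0.006 over all genes. Only 12 of 30 members were lower in the library labelled knockout in both numbers, and 16 went opposite ways. The fit with the replicate block gave a median log2 fold change of -0.158. With 1 library left out, the median log2 fold change of the members was 0.40 without wild type 1 and 0.14 without knockout 2. It was -0.535 without wild type 2 and -0.59 without knockout 1. Each of these fits leaves 1 library alone in its group, and the cause of the change in sign was not tested.

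Within each label, number 2 stood below number 1 for most members. In log2 CPM (prior count 2), 28 of 30 members were lower in wild type 2 than in wild type 1, where 52.5% of all genes were. Between the libraries labelled knockout, 26 of 30 were lower in number 2, where 50.0% of all genes were. A total of 24 members were lower in number 2 within both labels, against 33.1% of all genes, and 0 were higher within both, against 30.7%. These comparisons share no library. Each sets 1 library against 1, so no test was made, and the differences describe these libraries only.

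The differences within labels were also larger than those of the median gene in the table, but this size was not particular to the members. Median absolute differences within the wild-type and knockout labels were 0.90 and 0.74 for the members. They were 1.35 and 0.935 for the 8 trophoblast markers tested and 0.306 and 0.297 for the 10 stem cell markers. The median member differed by -0.90 between the wild-type libraries and by -0.61 between the libraries labelled knockout, where the medians of all genes were -0.03 and 0.0. A level at least 2-fold lower was seen for 14 of 30 members in wild type 2 (5.98% of all genes), for 10 in knockout 2 (8.89%) and for 9 in both (2.18%). A level at least 2-fold higher was seen for 0 members in wild type 2 (4.77% of all genes) and for 1, Pltp, in knockout 2 (7.98%). The 9 members that were lower in both were Trp53inp1, Bbc3, Fas, Phlda3, Btg2, Plk2, Dcxr, Ddit4l and Ephx1. Across the 30 members the 2 differences ran together, with Pearson's r = 0.677 and Spearman's rho = 0.743, where r was 0.347 across all 14194 genes. Genes share libraries and are not independent replicates, so these are descriptions.

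**Figure D1:**
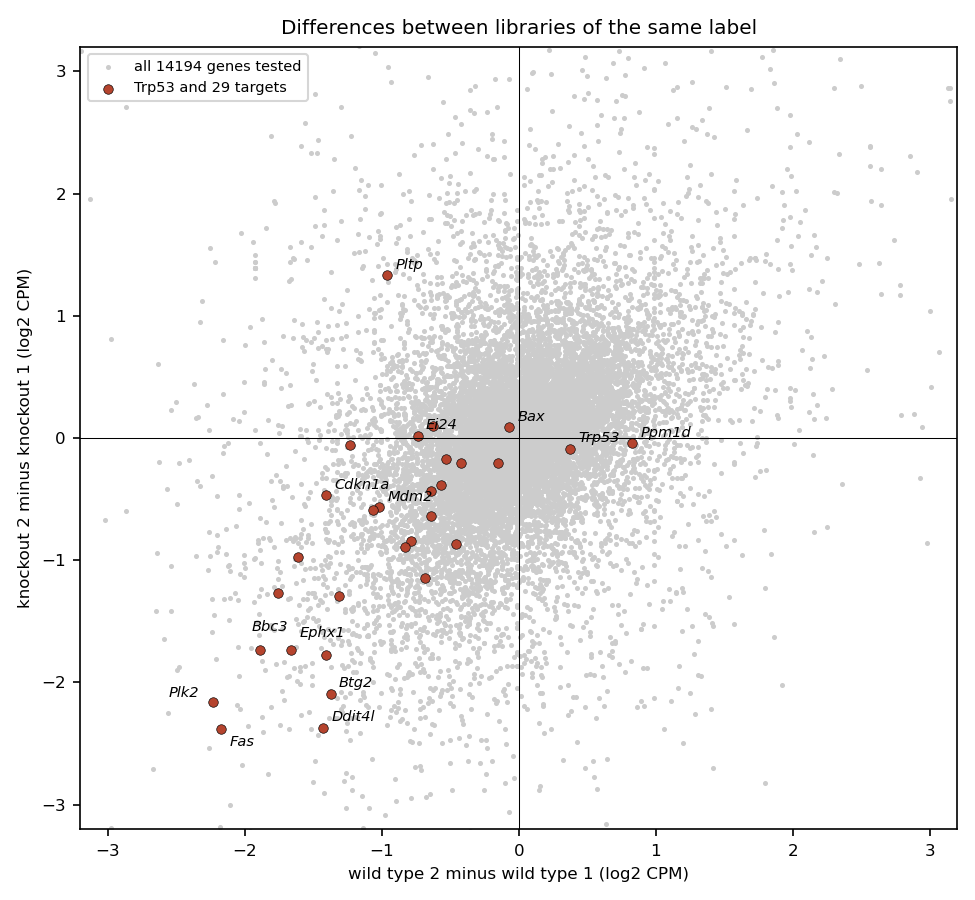
Each point is a gene, with the difference of wild type 2 minus wild type 1 on the x axis and of knockout 2 minus knockout 1 on the y axis, both in log2 CPM. Red points are Trp53 and its 29 targets, grey points all 14194 genes tested, 73 of which lie beyond the axes, and 24 of the 30 red points lie below 0 on both axes.

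Comparisons between libraries of the same number gave smaller differences. The median absolute difference of the members was 0.32 for knockout 1 against wild type 1 and 0.26 for knockout 2 against wild type 2. It was 0.90 and 0.74 within the wild-type and knockout labels. Over all genes the same medians were 0.23 and 0.33 between labels and 0.34 and 0.39 within them. In both numbers 12 members were lower in the library labelled knockout (27.0% of all genes) and 2, Bax and Sesn2, were higher (25.6%), while 16 went opposite ways. A 2-fold difference was reached by 0 members in number 1 (4.31% of all genes) and by 2 in number 2 (14.1%), Pltp and Ddit4l. The same-number and same-label differences use the same 4 libraries and are not independent of each other.

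**Figure D2:**
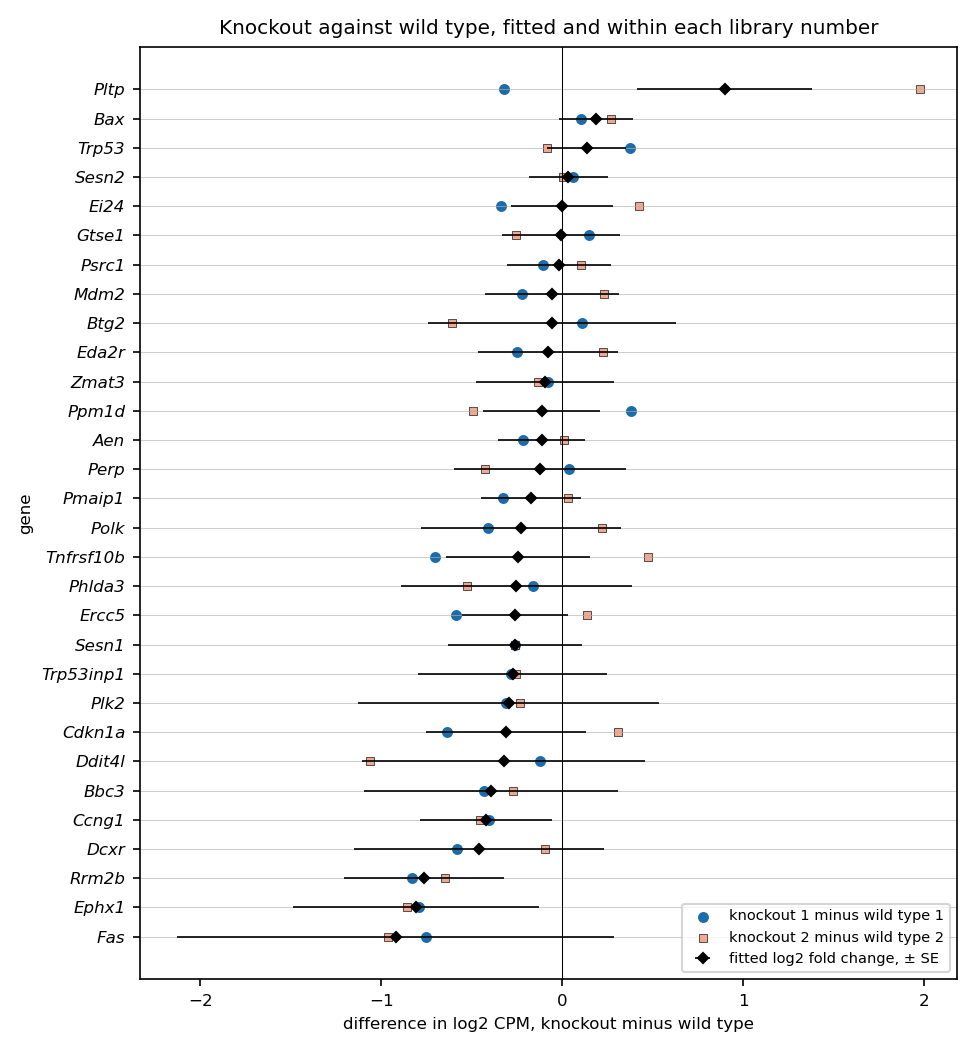
For each member, black diamonds give the fitted log2 fold change of knockout minus wild type with its standard error, circles the difference of knockout 1 minus wild type 1 and squares that of knockout 2 minus wild type 2, all in log2 CPM. Bax and Sesn2 have both points to the right of 0, and Fas, Ephx1 and Rrm2b have the 3 lowest fitted values.

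Trp53 RNA did not follow its targets. Trp53 (Entrez gene 22059, chromosome 11, 69580348 to 69591873) had 412 and 533 CPM in wild type 1 and 2 and 534 and 503 CPM in knockout 1 and 2. The lowest library was wild type 1, the library in which most targets were highest. Group means were 472 ± 85.5 CPM for wild type, against 518 ± 22.0 CPM (SD, n = 2 each), a log2 fold change of 0.13 (SE 0.22, edgeR adjusted p = 1.00) that was -0.04 without wild type 1. Per kilobase of exon, Trp53 had the highest mean level of all members, 265 CPM per kilobase, ahead of Bax at 208.

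**Figure D3:**
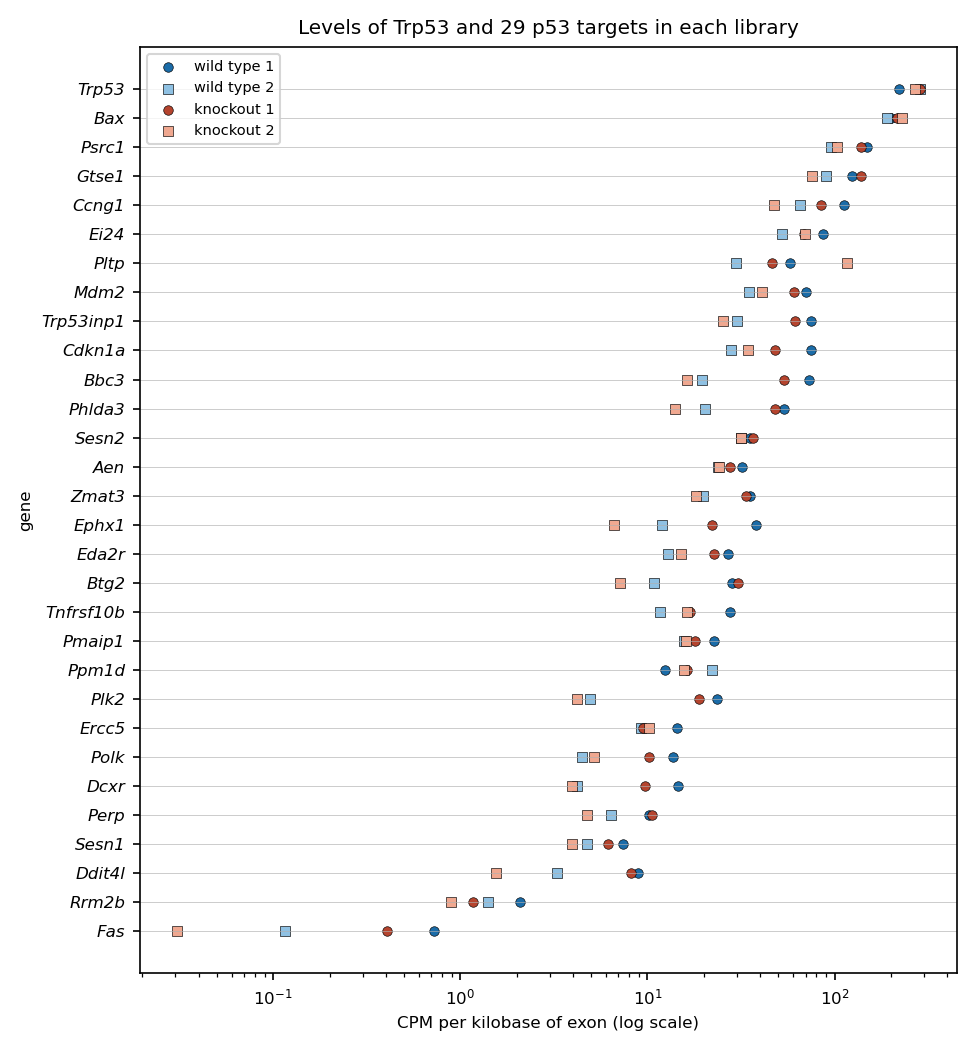
TMM-scaled CPM per kilobase of exon, on a log axis, for each member in each library, ordered by the mean over the 4 libraries. Circles are libraries numbered 1 and squares those numbered 2, and for most targets, such as Plk2, Bbc3 and Phlda3, both circles lie to the right of both squares.

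Among the genes that restrain p53, Mdm2 followed the numbers and Ppm1d did not. Mdm2 (Entrez gene 17246, chromosome 10, 117688875 to 117710758) had 223 and 110 CPM in wild type, against 191 and 129 CPM in those labelled knockout. Both libraries numbered 1 were above both numbered 2, and the groups overlapped, with a log2 fold change of -0.06 (SE 0.37, edgeR adjusted p = 1.00). Ppm1d encodes WIP1, a phosphatase that switches off p53 and its upstream kinases. It had 36.1 and 64.1 CPM in wild type, against 47.0 and 45.6 CPM in those labelled knockout, so it was highest in wild type 2, where most targets were low. Ccng1 encodes cyclin G1, a partner of protein phosphatase 2A that acts on MDM2. Its levels were 395 and 229 CPM in wild type, against 298 and 167 CPM in those labelled knockout, lower in number 2 within both labels and lower in the library labelled knockout within both numbers. The fitted log2 fold change was -0.42 (SE 0.36, edgeR adjusted p = 1.00), which was 0.03 without wild type 1.

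Cell cycle targets showed the pattern at different strengths. Cdkn1a (Entrez gene 12575, chromosome 17, 29090979 to 29100722) encodes p21, the inhibitor of cyclin-dependent kinases that carries out p53-dependent arrest. It had 202 and 76.2 CPM in wild type, against 130 and 94.3 CPM in those labelled knockout. Wild type 1 was 2.66 times wild type 2, whereas knockout 1 was 1.38 times knockout 2. Group means were 139 ± 89.2 and 112 ± 25.4 CPM (SD, n = 2 each), with a log2 fold change of -0.31 (SE 0.44, edgeR adjusted p = 1.00) that was 0.56 without wild type 1.

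Plk2, a polo-like kinase, had 65.6 and 13.8 CPM in wild type, against 52.8 and 11.8 CPM in those labelled knockout. The libraries numbered 1 were 4.74 and 4.49 times those numbered 2, and within each number the library labelled knockout was the lower. Btg2, an antiproliferative regulator of transcription and mRNA decay, had 77.3 and 29.8 CPM against 83.3 and 19.5 CPM. Gtse1 and Psrc1 encode microtubule-binding proteins of dividing cells, and Gtse1 also restrains p53 in G2. Gtse1 had 341 and 248 CPM in wild type, against 378 and 207 CPM in those labelled knockout, with a log2 fold change of -0.01 (SE 0.33, edgeR adjusted p = 1.00). For Psrc1 the levels were 259 and 166 CPM in wild type, against 241 and 179 CPM in those labelled knockout. Both genes were lower in number 2 within both labels, by less than 2-fold.

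Genes of the mitochondrial death pathway split. Bbc3 encodes PUMA, a BH3-only protein that releases BAX and BAK. It had 132 and 35.5 CPM in wild type, against 97.8 and 29.4 CPM in those labelled knockout, 3.71 and 3.33 times as much in number 1 as in number 2. The groups overlapped, and its log2 fold change was -0.40 (SE 0.70, edgeR adjusted p = 1.00), turning to 0.84 without wild type 1. Bax, the pore-forming effector, was nearly level at 173 and 165 CPM in wild type, against 186 and 198 CPM in those labelled knockout. It was the 1 member with both libraries labelled knockout above both wild-type libraries, by a log2 fold change of 0.19 (SE 0.20, edgeR adjusted p = 1.00). Pmaip1, which encodes the BH3-only protein NOXA, lay between, at 61.9 and 42.9 CPM in wild type, against 49.2 and 43.8 CPM in those labelled knockout.

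Death receptors and surface proteins were mostly highest in wild type 1. Fas, a receptor that triggers caspase-8, gave 25 and 4 reads in wild type, against 14 and 1 in those labelled knockout. The ratio of number 1 to number 2 was 6.30 in wild type (95% exact interval 2.17 to 24.9) and 13.3 in the libraries labelled knockout (2.02 to 563), where the intervals cover counting error only. Its fitted log2 fold change of -0.92 (SE 1.21, edgeR adjusted p = 1.00) was the lowest of the members, and it was 0.91 without wild type 1. Tnfrsf10b, a TRAIL receptor, had 88.0 and 37.3 CPM in wild type but 54.0 and 51.8 CPM in the libraries labelled knockout, so only the wild-type libraries stood apart. Eda2r, a receptor for ectodysplasin A2, had 129 and 61.6 CPM against 108 and 72.1 CPM. Perp, a membrane protein of desmosomes and p53-dependent death, had 20.0 and 12.4 CPM against 20.5 and 9.24 CPM. Both of the last genes were lower in number 2 within both labels.

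Further targets linked to cell death gave differences of unequal size. Trp53inp1, a stress-induced nuclear protein, had 406 and 163 CPM in wild type, against 334 and 136 CPM in those labelled knockout, which is 2.49 and 2.45 times as much in number 1 as in number 2. Phlda3, which competes with AKT for membrane lipids, had 77.4 and 29.04 CPM against 69.1 and 20.1 CPM. Number 2 was the lower library of both genes within each label. Within each number the library labelled knockout was also lower, for Phlda3 by a log2 difference of -0.16 in number 1 and -0.53 in number 2. Aen, an apoptosis-enhancing nuclease, had 165 and 123 CPM in wild type, against 142 and 124 CPM in those labelled knockout. Ei24, a membrane protein of the endoplasmic reticulum, had 212 and 127 CPM in wild type, against 168 and 170 CPM in those labelled knockout. Its log2 fold change was -0.004 (SE 0.28, edgeR adjusted p = 1.00), with the sign turning under RLE size factors, and the libraries labelled knockout were level. Zmat3, an RNA-binding zinc finger protein that shapes splicing, had 277 and 155 CPM in wild type, against 262 and 141 CPM in those labelled knockout, with number 2 the lower within each label.

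Metabolic targets ranged from level (Sesn2) to more than 2-fold apart between the numbers (Ddit4l, Dcxr, Ephx1), and Pltp went against the others in knockout 2. Sestrins restrain mTORC1 and limit oxidative damage. Sesn1 had 29.4 and 18.8 CPM in wild type, against 24.5 and 15.7 CPM in those labelled knockout, 1.56 times as much in number 1 within each label. Sesn2 was close to level, at 122 and 110 CPM against 127 and 110 CPM, and its log2 fold change of 0.03 (SE 0.22, edgeR adjusted p = 1.00) turned sign with upper quartile scaling and with library totals. Ddit4l, an inhibitor of mTOR signalling, had 24.3 and 8.97 CPM in wild type, against 22.3 and 4.23 CPM in those labelled knockout, so knockout 2 was the lowest library.

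Dcxr encodes a reductase of dicarbonyls and xylulose. It had 13.6 and 3.94 CPM in wild type, against 9.04 and 3.68 CPM in those labelled knockout, with a log2 fold change of -0.46 (SE 0.69, edgeR adjusted p = 1.00) that was 0.69 without wild type 1. Ephx1 encodes microsomal epoxide hydrolase, which detoxifies epoxides. Its levels were 66.6 and 20.9 CPM in wild type, against 38.5 and 11.5 CPM in those labelled knockout. Both the number and the label went with lower values here, since number 1 was 3.18 and 3.35 times number 2 and the log2 fold change was -0.81 (SE 0.68, edgeR adjusted p = 1.00). The groups still overlapped, as wild type 2 lay below knockout 1, and the fold change was 0.26 without wild type 1.

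Pltp, which encodes the phospholipid transfer protein, went the other way in knockout 2. It had 136 and 69.8 CPM in wild type 1 and 2, 109 CPM in knockout 1 and 275 CPM in knockout 2. The log2 fold change of 0.90 (SE 0.48, edgeR adjusted p = 1.00) was the highest of the members, and it rested on knockout 2, since it was 0.09 without that library. Exons of Pltp overlap those of Ctsa, a lysosomal protease gene on the opposite strand, by up to 311 bases. Ctsa had 170 and 112 CPM in wild type, against 115 and 329 CPM in those labelled knockout. The strand setting of the counting is not given in the sources used here, so reads of the shared stretch cannot be told apart.

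Repair genes differed among themselves. Rrm2b, a ribonucleotide reductase subunit that supplies nucleotides for repair, gave 183 and 124 reads in wild type, against 102 and 74 in those labelled knockout. It was the 1 member with both libraries labelled knockout below both wild-type libraries, with a log2 fold change of -0.77 (SE 0.44, edgeR adjusted p = 1.00). Its fold change lay between -1.01 and -0.45 as each of the 4 libraries was left out. Ercc5, the XPG nuclease of nucleotide excision repair, had 56.0 and 36.3 CPM in wild type, against 37.2 and 39.9 CPM in those labelled knockout, so wild type 1 alone was high. Polk, a polymerase that copies past damaged bases, had 58.4 and 19.1 CPM in wild type, against 43.9 and 22.3 CPM in those labelled knockout, above in number 1 within both labels. Exons of Rrm2b, Cdkn1a and Ei24 also overlap a transcript on the opposite strand, so the unknown strand setting limits them as it does Pltp. Exons of Bax overlap a gene on its own strand, where a strand setting cannot separate the reads. With Pltp, 5 of the 30 members have such overlaps in GENCODE M21. Whether the authors' annotation held all of the overlapping transcripts is not given.

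Members with and without an exact half-site in the 250 bases before a listed start site both mostly stood lower in number 2. Only these bases were searched, so members without a half-site here may hold p53 sites elsewhere. Lower in number 2 within both labels were 7 of the 11 with a half-site and 11 of the 13 without one. The 11 with a half-site, which include Trp53 itself, had medians of -0.74 between the wild-type libraries and -0.47 between the libraries labelled knockout. For the 13 without one the medians were -1.37 and -1.27. Of the 9 members at least 2-fold lower in number 2 within both labels, 1 with a half-site (Ddit4l) and 7 without had start sites in the table, and the remaining one, Trp53inp1, had no entry. Cdkn1a, with the exact pair printed above, differed by -1.41 between the wild-type libraries and by -0.47 between those labelled knockout, beside medians of -0.90 and -0.61 over the members.

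Other genes of the pathway were read from 4 further lists, in which 0 genes passed the edgeR test in either direction. Of 39 other p53 targets, 18 were lower in number 2 within both labels and 5 higher, against 33.1% and 30.7% of all genes, with medians of -0.28 and -0.35. Tap1, Lif and Zfp365, named after their values were seen, were at least 2-fold lower in number 2 within both labels. Tap1, a peptide transporter of antigen presentation, gave 308 and 51 reads in wild type, against 178 and 34 in those labelled knockout.

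BCL2 family and caspase genes had 10 of 19 tested members lower in number 2 within both labels (33.1% of all genes) and 3 higher (30.7%). Mcl1, an antiapoptotic member and the most abundant, had 722 and 573 CPM in wild type, against 609 and 778 CPM in those labelled knockout, with no common direction. A list of cell cycle genes, mostly of the G2/M programme that the DREAM complex represses downstream of p21, was closer to the background. It also held Lin9, Lin54 and E2f4, which encode subunits of that complex, and Mcm5, a replication gene. In this list 11 of 30 were lower in number 2 within both labels (33.1% of all genes) and 8 higher (30.7%), with medians of -0.01 and -0.08. Its most abundant member, Mybl2, was at 964 and 1056 CPM in wild type, against 1044 and 1035 CPM in those labelled knockout.

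Regulators of p53 went both ways, as did the whole table. In number 2 within both labels, 9 of 30 were lower (33.1% of all genes) and 11 higher (30.7%). Rpl5, a ribosomal protein that can bind MDM2 and the most abundant of them, had 1252 and 975 CPM in wild type, against 1126 and 1118 CPM in those labelled knockout. The next 4 regulators were named after their values were seen. Mdm4, an MDM2 relative that blocks p53, had 422 and 209 CPM in wild type, against 346 and 209 CPM in those labelled knockout, higher in number 1 like the targets. Sirt1, a deacetylase of p53, had 53.1 and 134 CPM in wild type, against 80.3 and 199 CPM in those labelled knockout, the opposite order. Cdkn2a has ARF, which blocks MDM2, among its products, and counts per gene do not tell its transcripts apart. It gave 302 and 230 reads in wild type, against 94 and 103 in those labelled knockout. This difference followed the label (log2 fold change -1.39, SE 0.39), with an unadjusted p of 0.00893 and an adjusted p of 1.00 by the edgeR test. It was 1 of 2 regulators among 30 with an unadjusted edgeR p under 0.05, beside 1.7% of all genes. The other, Rrp8, a nucleolar protein of ribosomal RNA processing, lay in the opposite direction, with 29.1 and 26.03 CPM in wild type against 39.9 and 48.7 CPM (log2 fold change 0.68, unadjusted p = 0.0362 and adjusted p = 1.00 by the edgeR test).

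**Figure D4:**
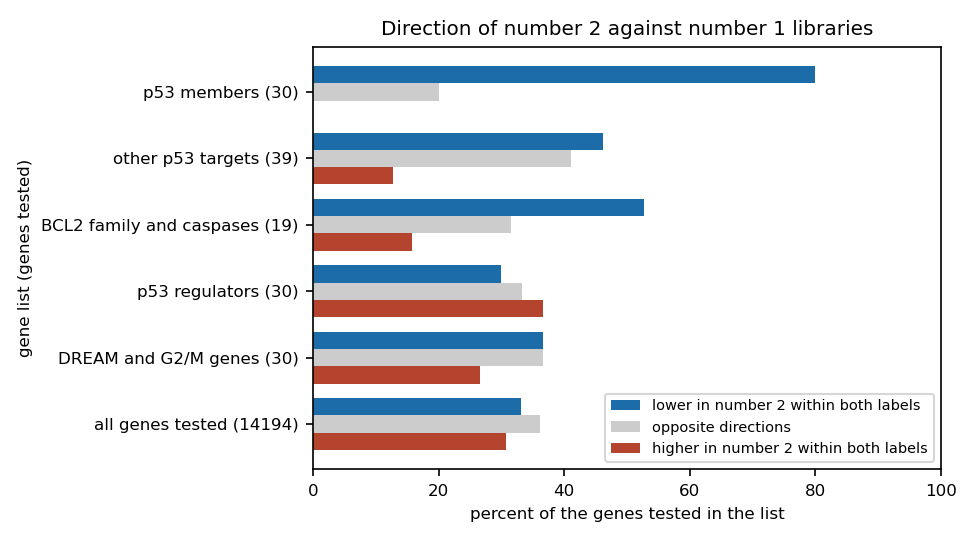
Bars give the percent of each list's tested genes that were lower in number 2 within both labels, went opposite ways, or were higher in number 2 within both labels. Trp53 and its targets stand at 80.0%, 20.0% and 0.0%, against 33.1%, 36.2% and 30.7% of all genes tested.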

How the data were processed

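The authors deposited whole-number read counts per gene for 4 libraries, and the submitters' processing notes name HISAT2, featureCounts and mm10. For versions, annotation, strand and multi-mapping, the settings were not given in the sources used here. Of 24116 Entrez numbers, 24061 matched a symbol in RefSeq GRCm38.p6. Groups and numbers came from the titles. Counts were tested on the whole table with edgeR 4.0.16 (R 4.3.3): filterByExpr, TMM, the quasi-likelihood test on genotype alone, and Benjamini-Hochberg adjustment over 14194 genes at 0.05. The standard error is the absolute log2 fold change over the square root of F. Log2 CPM values carry a prior count of 2. A count of 0 allows up to 3 counts, or 0.156 to 0.165 CPM. Exon lengths are GENCODE M21 exon unions, which may differ from the authors' annotation. Sequences are from RefSeq GRCm38.p6. Statistics were given in full for Trp53, Mdm2, Cdkn1a and the 6 highest and 6 lowest fold changes, and other lists gave their most abundant member unless one passed the threshold. The result for 1 such gene is not reported here. The members and lists were chosen with earlier results of these data known. Alternatives were 3 scalings, 2 filters, DESeq2 1.42.0, limma-voom (limma 3.58.1), the likelihood ratio test, a replicate block and each library left out.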

Additional observations from a re-analysis of the deposited data

How the results depend on the processing

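No member passed the threshold under any setting run. The count over all genes was 0 in the edgeR quasi-likelihood test and 0 under the other scalings, filters, limma-voom and the replicate block, but 2 by DESeq2, 4 by the likelihood ratio test, and 0 to 91 when each library was left out. Members without overlap between labels numbered 2 of 30 with all 4 libraries and 6 to 25 with 1 left out. They were 15 without wild type 1 (56.1% of all genes), 25 without wild type 2 (67.8%), 17 without knockout 1 (73.6%) and 6 without knockout 2 (51.2%). At an unadjusted edgeR p under 0.05 lay 8 members without knockout 1 (1843 of 14714 genes), 2 without wild type 2 (379 genes), 1 without wild type 1 (210 genes) and 0 without knockout 2 (172 genes). The median log2 fold change of the members was -0.20, and ranged from -0.59 (without knockout 1) to 0.40 (without wild type 1) as libraries were left out. Over those fits the log2 fold change lay between -0.0397 and 0.34 for Trp53, -0.47 and 0.54 for Mdm2, -0.84 and 0.56 for Cdkn1a, -0.0744 and 0.13 for Sesn2, -0.32 and 0.41 for Ei24, and -0.51 and 0.37 for Gtse1. It lay between -3.63 and 0.91 for Fas, -1.93 and 0.26 for Ephx1, -1.25 and 0.69 for Dcxr, -0.91 and 0.0257 for Ccng1, and -1.51 and 0.84 for Bbc3. The sign turned for 10 of the 14 members with full statistics without wild type 1, 4 without knockout 2, 2 without knockout 1 and 1 without wild type 2. Among the settings that keep all 4 libraries, signs turned for values near 0: Mdm2 was at 0.0049 by limma-voom and 0.0027 with the replicate block. Sesn2 was at -0.0016 with upper quartile scaling and -0.0092 with library totals. Ei24 was at 0.0001 by RLE size factors and by DESeq2, 0.043 by limma-voom and 0.042 with the replicate block. The causes were not tested. The labels do not say that a number marks a shared batch, and with 2 pairs the data cannot settle it. The correlation of deviations of same-numbered libraries across genes is the same quantity as the r = 0.347 of the same-label differences given above, not a second measure. The block called 0 genes, with 735 at an unadjusted edgeR p under 0.05 against 242 without it, and 2 members (Ephx1 and Ccng1) against 0. Settings for the differences within labels were chosen after seeing the data: the members lower in number 2 within both labels were 24 or 25 under 3 other scalings and prior counts of 0.5 and 5. At these depths counting error limits Fas, at 1 to 25 counts, more than other members.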
